A study of Homo sapiens with 4 samples.

Results

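Keratin genes were followed in DLD-1 and HT-29, a pair of human colorectal cancer cell lines, grown with or without 5-aza-2'-deoxycytidine, an inhibitor of DNA methyltransferases. A spot was taken as a keratin spot when its gene symbol was KRT followed by digits and at most 1 letter, which left out the keratin-associated proteins of hair. The rule found 33 probes of 31 genes among 29640 probes that were not controls, which carried names of 13016 genes. Of these, 26 probes of 25 genes were measured over both lines, meaning that at least 1 channel was above local background on all 4 arrays, against 18868 probes of 9103 genes in the whole table.

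Keratins are the intermediate filament proteins of epithelial cells. Each filament pairs a type I (acidic) with a type II (basic) keratin, and the pair in use differs between tissues: KRT8 and KRT18 are the first pair of simple epithelia, KRT19 and KRT20 are added in gut epithelium, KRT5 and KRT14 mark basal cells of stratified epithelia, KRT1 and KRT10 mark differentiating epidermis, and a separate set builds the hair shaft. Filaments anchor in desmosomes and give the cell sheet its mechanical strength.

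Treated cells of each line received 1 µM of the drug for 96 h, after 24 h of growth without it, and were set against untreated cells of that line. Treated and untreated RNA of a line shared 2 arrays, the first with treated RNA in Cy5 and the second with the dyes exchanged. The labels do not say that the 2 arrays of a line held RNA of separate cultures, so they were counted as 1 replicate, and their number limits the precision of every value below. Both lines are established cancer lines, and nothing here speaks to normal colon.

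On the dye-exchanged arrays, the sources used here do not settle which of the file's channels is the treated one. File channel 2 was read as treated on all 4 arrays, a working reading under which the germline genes PAGE5 (log2 ratios of at least 2.89) and MAEL (3.67, 2.26, 1.61 and 2.70) were positive on every array. That pattern helped to choose the reading and so lends it no support. The labels' own channel order turns the sign of every value on the dye-exchanged arrays, and the main counts, medians and gene means are given under it as well. Under the working reading the DLD-1 arrays correlated with each other at r = −0.45 in log2 ratio across 18868 probes and the HT-29 arrays at 0.00. The labels' order turns the sign of these correlations within a line, so the DLD-1 arrays then correlate positively. The 2 arrays with treated RNA in Cy5, where the labels settle the direction, correlated at 0.51. Probes are not independent replicates.

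Of the 10 colorectal epithelial markers listed, 7 (CDH1, CDX2, EPCAM, KRT18, KRT20, KRT8 and VIL1) had a probe with both channels above background on all 4 arrays. CDH17, CDX1 and LGALS4 were not measured over both lines, and LGALS4, a galectin of gut epithelium, had average log2 signals of 8.42 and 8.80 on the DLD-1 arrays and 13.20 and 13.43 on the HT-29 arrays. Of the fibroblast list, VIM and LUM were above background in 0 of 8 channels, COL1A2 in 7, and COL1A1, COL3A1 and DCN in all. Of the leukocyte list, PTPRC was above it in 6 of 8 channels, CD14 in 7, and CD3D and LYZ in all. IVL and the first KRT10 probe, of the keratinocyte list, were above it throughout. Also of the keratinocyte list, TP63 and KRT14 were above background in 7 of 8 channels. KRT1 and KRT5 were above it in 2 of 8, those of the first HT-29 array, and were not measured over both lines. The part of these other markers in the keratin results was not tested.

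Most keratin probes were above background on every array. Both channels were above background on all 4 arrays at 19 of 33 keratin probes (57.6%), against 14197 of 29640 probes in all (47.9%). KRT3, a keratin of corneal epithelium, was above background in no channel. The probes for KRT1, KRT2, KRT4, KRT5 and KRT12 and the second of 2 probes for KRT10 also missed the filter on at least 1 array. KRT12 and the second KRT10 probe were still measured on both HT-29 arrays. So 5 of the 10 type II keratins but 20 of the 21 type I keratins entered the comparison over both lines. No keratin probe was switched on, that is, at background in the untreated channel and above it in the treated channel on both arrays of a line with at least a 2-fold ratio: the counts were 0 of 26 probes in DLD-1 and 0 of 28 probes in HT-29, beside 0.0236% and 0.0177% of all probes.

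The 250 bases before the start site are shown for KRT8 and KRT20, the keratins with the largest mean log2 ratio in DLD-1 (KRT8) or HT-29 (KRT20), for KRT10, which had no CG pair there, and for KRT9, which had 6. They come from RefSeq's promoter table on GRCh38.p14, at the start site listed there, and run 5′ to 3′ on the gene's strand. Capitals mark CG pairs, the site where DNA methyltransferases act, and the TATA-box letters TATAAA.
KRT8 (chr12:52926470-52926719, minus strand): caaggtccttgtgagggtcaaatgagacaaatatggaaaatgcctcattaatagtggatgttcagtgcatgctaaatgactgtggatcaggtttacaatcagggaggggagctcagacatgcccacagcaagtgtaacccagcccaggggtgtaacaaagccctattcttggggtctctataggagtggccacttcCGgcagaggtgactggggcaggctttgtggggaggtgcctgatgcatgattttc
KRT20 (chr17:40885243-40885492, minus strand): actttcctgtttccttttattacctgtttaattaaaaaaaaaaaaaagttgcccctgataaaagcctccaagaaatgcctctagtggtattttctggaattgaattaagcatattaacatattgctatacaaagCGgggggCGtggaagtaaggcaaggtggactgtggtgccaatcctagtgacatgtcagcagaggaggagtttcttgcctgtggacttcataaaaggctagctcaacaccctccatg
KRT10 (chr17:40822615-40822864, minus strand): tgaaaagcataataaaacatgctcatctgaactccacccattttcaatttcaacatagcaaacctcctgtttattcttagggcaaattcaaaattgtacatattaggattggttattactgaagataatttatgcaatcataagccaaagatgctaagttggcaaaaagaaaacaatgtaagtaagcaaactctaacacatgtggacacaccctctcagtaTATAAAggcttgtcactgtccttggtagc
KRT9 (chr17:41572060-41572309, minus strand): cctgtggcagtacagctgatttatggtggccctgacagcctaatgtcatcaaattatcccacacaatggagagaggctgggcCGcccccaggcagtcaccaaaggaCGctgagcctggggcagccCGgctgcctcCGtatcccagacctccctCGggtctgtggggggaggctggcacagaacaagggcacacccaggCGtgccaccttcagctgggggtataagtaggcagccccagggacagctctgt

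The keratin windows at hand held few CG pairs. The table had an entry for 21 of the 31 keratin genes, and for none of KRT1, KRT6B, KRT7, KRT13, KRT14, KRT15, KRT16, KRT18, KRT19 and KRT23. Of the simple epithelial keratins on the array only KRT8 and KRT20 had an entry, whereas 9 of the 21 windows were of hair shaft keratins. The windows therefore say little of the simple epithelial group. The median was 2 CG pairs in 250 bases over the 21 keratins (range 0 to 7), against 11 over 35116 windows in the table. At most 3 CG pairs were found in 17 of the 21 windows (81.0%), against 29.3% of all windows. KRT8 held 1, KRT20 held 2, and the highest counts were 7 in KRT75, a keratin of the companion layer of the hair follicle, and 6 in KRT5 and KRT9. Each gene was read at 1 listed start site, and any other start site, of KRT8 or another keratin, was not examined. TATAAA, searched on both strands, lay on the gene's strand in 11 of the 21 (52.4%), starting 28 to 31 bases before the start site, against 6.80% of all windows. On either strand the count was also 11, against 10.7% of all windows. It was present in 7 of 9 hair shaft keratins and 4 of 12 others. A match to these letters is a description of the window and not a site shown to be used, and methylation was not measured on these arrays.

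**Figure D1:**
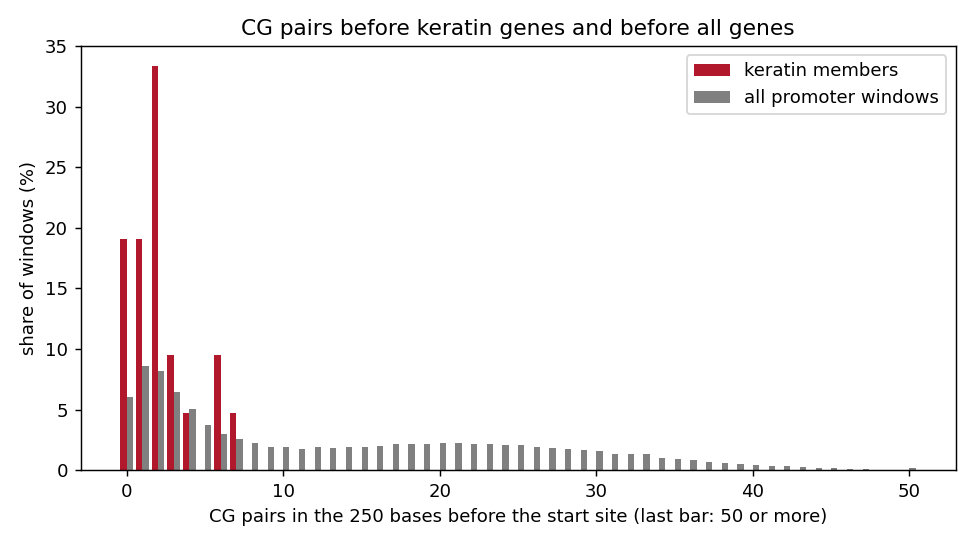
Share of promoter windows (%) by the number of CG pairs in the 250 bases before the start site, for 21 keratin genes and for all 35116 windows of the table. The keratin windows lie between 0 and 7 CG pairs with a median of 2, whereas all windows spread widely around a median of 11.

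The comparison over both lines took the average of the line means, which 1 line alone can carry. KRT23 rose and no keratin fell by this test. Limma on the 2 line means with Benjamini-Hochberg adjustment over 9103 genes called 1 of 25 keratins higher, beside 0.198% of all genes, and 0 lower, beside 0.0439%; in both directions together 22 genes (0.242%) passed. At an unadjusted p under 0.05 there were 5 keratins higher (20%, against 3.2% of all genes) and 1 lower, 6 of 25 together (24%), against 5%; the labels' order gave 2 of 25 (KRT18 and KRT31), against 11%. The mean was positive for 14 of 25 keratins (56%), against 51.2% of all genes, and the median was 0.02 over the keratins and 0.01 over all genes (0.13 and 0.05 in the labels' order). The log2 ratio had 1 sign on all 4 arrays for 5 keratins (20%), against 7.89% of all genes: KRT23, KRT8, KRT10 and KRT6B were positive throughout (4.31% of all genes) and KRT14 negative throughout (3.58%). In the labels' channel order 0 of 25 keratins passed, beside 0.648% of all genes, and 4 of 25 (16%) had 1 sign on all 4 arrays, against 15.9%: KRT18, KRT31 and KRT32 were then positive and KRT33A negative throughout, so none of the 5 genes above was among them. KRT31, a hair shaft keratin, then had the largest keratin mean (0.63, against 0.00 in the working reading). Limma took 1 shared variance for all genes, so every gene mean has an SE of 0.22, and 0.5 is the smallest two-sided p that an exact sign-flip test of 2 line means allows.

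**Figure D2:**
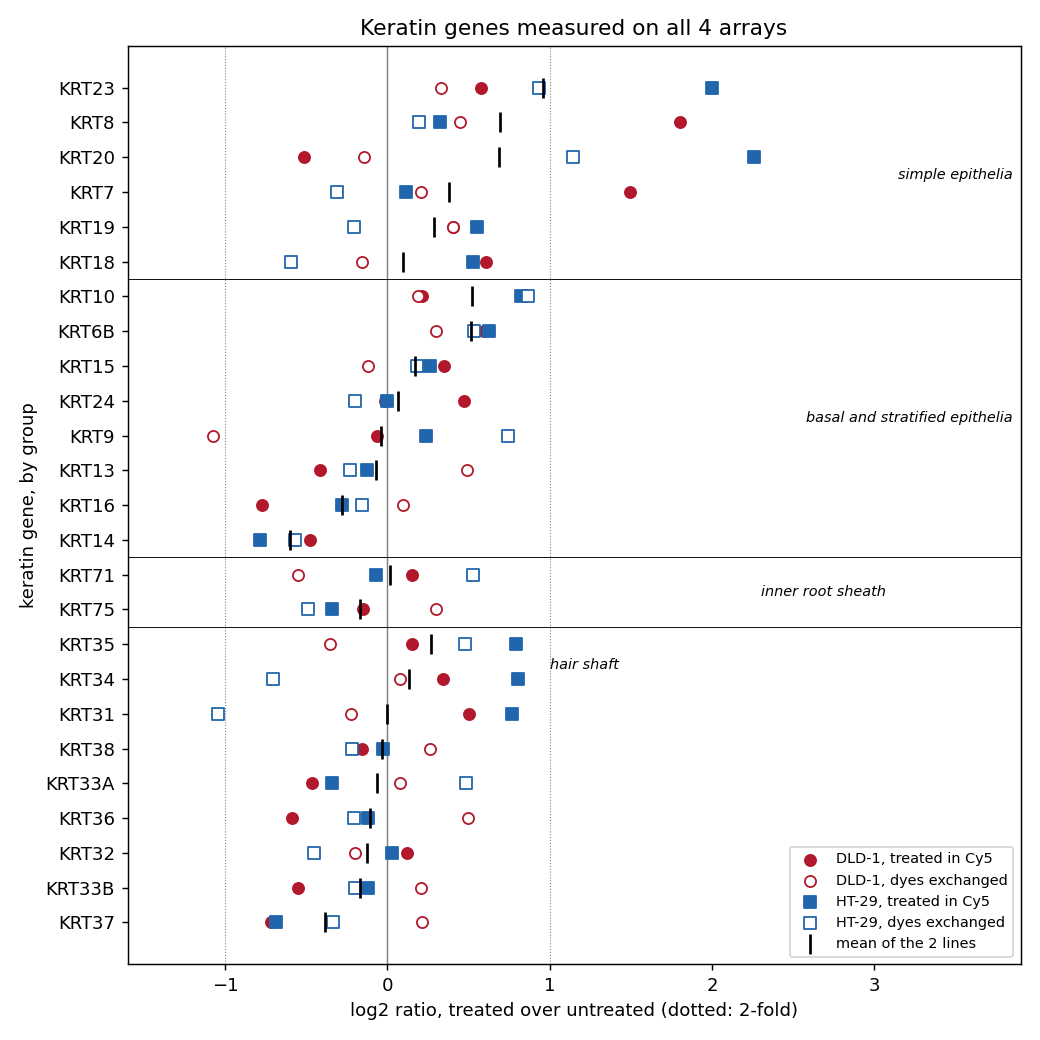
Log2 ratio of treated over untreated RNA for each of the 25 measured keratin genes on each of the 4 arrays, under the working reading. KRT20 and KRT23 stand at 2.26 and 2.00 on the first HT-29 array and KRT8 and KRT7 at 1.80 and 1.50 on the first DLD-1 array, while most other keratins lie between −1 and 1 on all arrays.

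The 6 measured keratins of simple epithelia, the class that colon epithelium makes, had the highest median of the 4 groups in either channel order. All 6 had a positive mean over both lines, against 51.2% of all genes. That of KRT18, 0.10, changed sign without the first array of either line. The group's median was 0.53, and 1 keratin passed the test, beside 0.198% of all genes higher. The median was 0.43 in DLD-1 and 0.22 in HT-29. In the labels' channel order it was 0.35 over both lines, 0.25 in DLD-1 and 0.46 in HT-29, so the line with the higher median depends on the order. Over all genes the corresponding medians were 0.01 over both lines, −0.04 in DLD-1, 0.04 in HT-29 and 0.05 in the labels' order.

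KRT23, a type I keratin gene on chromosome 17, had treated signals of 11.60 and 11.09 (log2) on the DLD-1 arrays against untreated signals of 11.03 and 10.76, and treated signals of 11.42 and 12.64 on the HT-29 arrays against untreated signals of 9.42 and 11.71, with the array that carried treated RNA in Cy5 first in each pair. The log2 ratios were 0.58 and 0.33 in DLD-1 and 2.00 and 0.94 in HT-29. The treated channel was the brighter one on all 4 arrays, and the signals of treated and untreated RNA did not overlap between arrays in DLD-1 but did in HT-29. The line means were 0.45 ± 0.18 (1.37-fold) in DLD-1 and 1.47 ± 0.75 (2.77-fold) in HT-29 (SD over 2 arrays). The mean of both lines was 0.96, with adjusted p = 0.00494 by limma and Benjamini-Hochberg. That call was lost in the labels' channel order (mean 0.33, adjusted p = 0.635), with the medians of the printed blocks set to 0 (0.82, adjusted p = 0.954) and with plainly subtracted background (1.20, adjusted p = 0.817). Without the first DLD-1 array, the first HT-29 array or the second HT-29 array the means were 0.90, 0.70 and 1.23. Without the second DLD-1 array the mean was 1.02. Each of these fits keeps 1 array in a line, and whether KRT23 passed changed with the array left out.

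KRT20, a type I keratin of differentiated gut epithelium, had the largest HT-29 mean of any keratin under the working reading. Its treated signals in HT-29 were 12.51 and 13.56, against untreated signals of 10.25 and 12.42, so the treated signals lay above the untreated ones on both arrays without overlap. In DLD-1 the treated signals were 10.34 and 12.13 and the untreated signals 10.85 and 12.27, a small difference of the other sign on both arrays, with overlap between arrays. The log2 ratios of −0.51 and −0.14 in DLD-1 and 2.26 and 1.14 in HT-29 gave line means of −0.33 ± 0.26 and 1.70 ± 0.79 (3.25-fold). The mean of both lines was 0.69, which did not pass the test (limma, adjusted p = 0.225). Turned to the labels' channel order, that mean was 0.19 and the HT-29 mean 0.56, below KRT31 (0.90) and KRT34 (0.75). In bulk RNA, more cells making a keratin and more of its RNA per cell cannot be told apart.

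KRT8, the type II partner of KRT18, had its larger ratio in the other line. Its treated signals in DLD-1 were 14.35 and 13.19, against untreated signals of 12.55 and 12.75, and in HT-29 the treated signals were 12.07 and 11.11, against untreated signals of 11.74 and 10.91. Treated RNA was brighter on all 4 arrays, and the signals did not overlap between arrays in DLD-1. The log2 ratios were 1.80 and 0.45 in DLD-1 and 0.32 and 0.20 in HT-29. The line means were 1.12 ± 0.96 (2.18-fold) and 0.26 ± 0.09. The mean of both lines was 0.69 (limma, adjusted p = 0.216). Without the second DLD-1 array it was 1.03 and without the first it was 0.35, each with 1 array left in DLD-1. In the labels' channel order the mean was 0.37.

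KRT18 was read by 2 probes that disagreed. The first had log2 ratios of 1.09 and 0.76 in DLD-1 and 0.68 and −0.66 in HT-29. The second had 0.13 and −1.07 in DLD-1 and 0.37 and −0.52 in HT-29. The treated signal of the second probe was not above background on the dye-exchanged DLD-1 array. Averaged, KRT18 had a mean of 0.10 over both lines, with adjusted p = 0.994 by limma, and the sign of that mean changed without the first array of either line. It was 0.47 in the labels' channel order.

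KRT19, which lacks the tail domain of other keratins, had log2 ratios of 0.40 and 0.40 in DLD-1 and 0.55 and −0.21 in HT-29. The ratio was positive on 3 of 4 arrays, and its mean of 0.29 did not pass (limma, adjusted p = 0.988). The labels' channel order gave 0.19, and the mean was 0.10 without the first HT-29 array, 0.05 under median centring and 0.05 from the authors' deposited ratios. KRT7, a type II keratin of ductal epithelia, had log2 ratios of 1.50 and 0.21 in DLD-1 and 0.12 and −0.31 in HT-29. Its line means were 0.85 ± 0.91 and −0.10 ± 0.30, and the DLD-1 value rested on the first array. Without that array its mean was 0.05. The mean of 0.38 had an adjusted p of 0.988 by limma and was 0.43 in the labels' channel order.

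**Figure D3:**
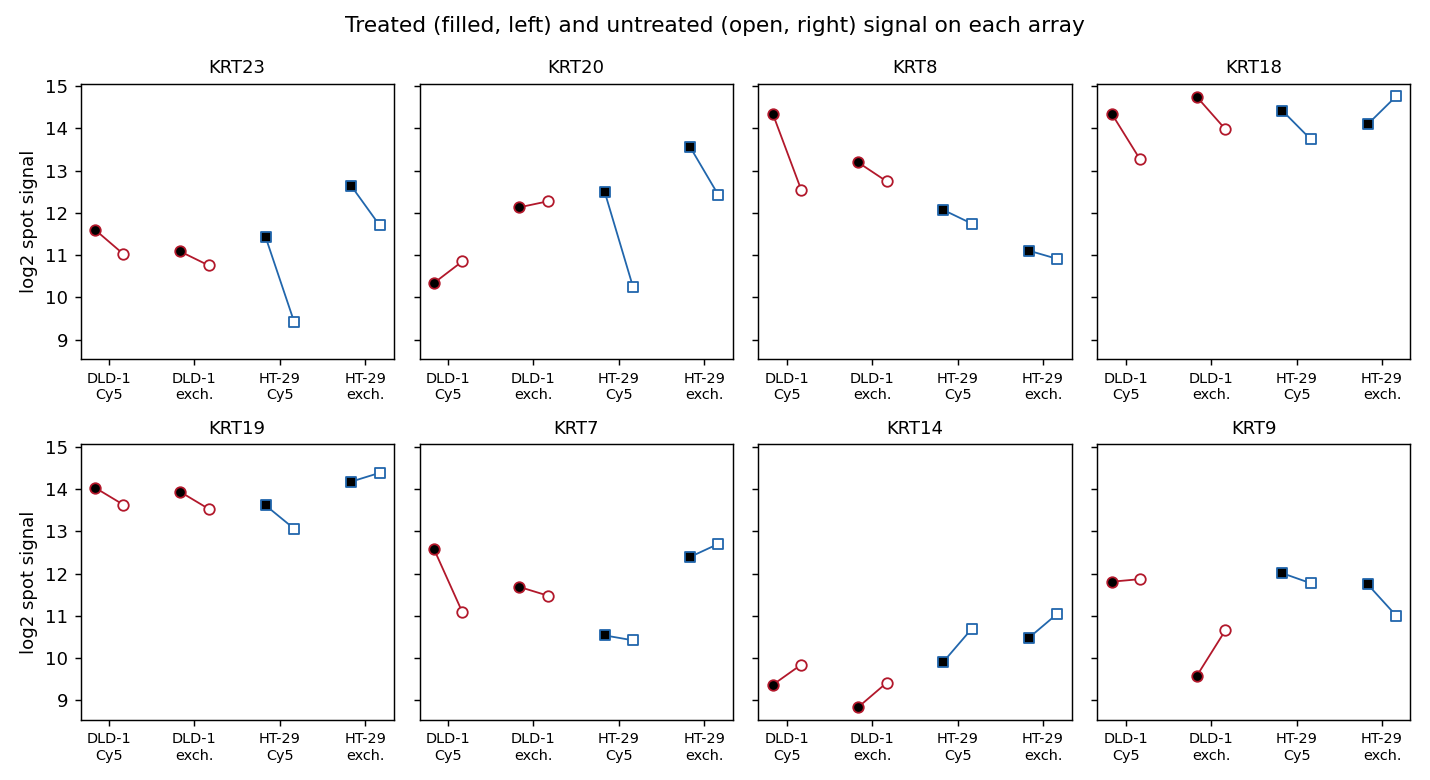
Log2 signal of treated and untreated RNA, array by array, for 8 keratins, with filled points for treated and open points for untreated RNA, DLD-1 in red and HT-29 in blue, each line joining the values of 1 array; the first of the 2 KRT18 probes is shown. KRT20 is higher in treated RNA on both HT-29 arrays (12.51 and 13.56 in treated against 10.25 and 12.42 in untreated RNA), and KRT8 is steepest on the first DLD-1 array (14.35 against 12.55).

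Among the 14 keratins of basal and stratified epithelia, 8 were measured and 0 passed the test, beside 0.242% of all genes. Of the 8 means 4 were above 0, against 51.2% of all genes, and the median was 0.01 (0.05 in the labels' order). KRT14, the type I partner of KRT5 in basal cells, had treated signals of 9.37 and 8.84 in DLD-1, against untreated signals of 9.85 and 9.42, and treated signals of 9.92 and 10.48 in HT-29, against untreated signals of 10.70 and 11.05. Treated RNA was the dimmer one on all 4 arrays, and the treated channel was not above background on the dye-exchanged DLD-1 array. The log2 ratios were −0.48, −0.58, −0.78 and −0.57, a mean of −0.60 with adjusted p = 0.447 by limma. In the labels' channel order the same ratios gave a mean of −0.03.

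KRT10, the type I keratin of differentiating epidermis, had 1 probe measured over both lines, with log2 ratios of 0.22 and 0.19 in DLD-1 and 0.82 and 0.86 in HT-29. The ratio was positive on all 4 arrays, with a mean of 0.52 (limma, adjusted p = 0.694), and of 0.00 in the labels' channel order. It was 0.23 without the first DLD-1 array and 0.24 with no filter on dim probes, settings in which the gene's second probe entered. The second KRT10 probe, not above background on the first DLD-1 array, had log2 ratios of −0.32 and −0.39 in HT-29, the sign opposite to that of the first probe. KRT6B, a type II keratin of stressed and wounded epidermis, had log2 ratios of 0.60 and 0.30 in DLD-1 and 0.63 and 0.53 in HT-29. Its mean of 0.51 had an adjusted p of 0.712 by limma, and its untreated signal was not above background on the first HT-29 array. The labels' channel order gave 0.10. KRT16, a type I keratin also made in wounded epidermis, had log2 ratios of −0.77 and 0.10 in DLD-1 and −0.28 and −0.15 in HT-29. Its mean of −0.28 did not pass (limma, adjusted p = 0.988), and its treated signal was not above background on the first DLD-1 array. That mean was −0.25 in the labels' order and −0.06 without the first DLD-1 array. KRT15, a keratin of basal and hair follicle stem cells, had a mean of 0.17, and of 0.14 in the labels' order. The other 3 measured keratins of the group, KRT9, KRT13 and KRT24, had means between −0.07 and 0.06, and of 0.13, −0.20 and 0.17 in the labels' order.

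Hair shaft and inner root sheath keratins were bright enough to be measured although neither line is a hair cell. All 9 hair shaft keratins entered the comparison and 0 passed, beside 0.242% of all genes. Of these, 3 had a mean above 0, against 51.2% of all genes, with a median of −0.06 and means between −0.38 and 0.27. In the labels' order the median was again −0.06, with means between −0.34 (KRT33A) and 0.63 (KRT31). Under the working reading the lowest was KRT37, with log2 ratios of −0.72 and 0.21 in DLD-1 and −0.68 and −0.33 in HT-29. At the other end KRT35 had 0.15 and −0.35 in DLD-1 and 0.79 and 0.48 in HT-29. Turned, their means were −0.32 and 0.20. KRT31 had 0.50 and −0.23 in DLD-1 and 0.77 and −1.04 in HT-29, positive on the first array of each line and negative on the dye-exchanged one, which the labels' order makes positive on all 4. The 2 inner root sheath and companion layer keratins, KRT71 and KRT75, had means of 0.02 and −0.17. Keratin paralogues are alike in sequence, and which of them a spot binds was not tested.

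By filament type, the 20 measured type I keratins had a median of −0.02 with 10 means above 0, and the 5 type II keratins (KRT6B, KRT7, KRT8, KRT71 and KRT75) a median of 0.38 with 4 above 0. In the labels' order the type I and type II medians were 0.13 and 0.10, the other way round. By location, the 6 measured genes of chromosome 12, where the type II genes and KRT18 lie, had a median of 0.24, and the 19 of chromosome 17 a median of −0.03 (0.23 and 0.13 in the labels' order). Neither split was tested, and the 5 type II keratins that missed the filter have no part in it.

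Within each line few keratins passed 2-fold. In DLD-1, 0 of 25 keratins were at least 2-fold changed with 1 sign on both arrays, beside 0.176% of all genes (0.167% higher, 0.0098% lower). There, 14 of 25 had a mean above 0 (56%, against 43.5% of all genes), and 10 of 25 (40%) had 1 sign on both arrays, against 32.7%. The keratin median was 0.05, against −0.04 over all genes. In HT-29, KRT20 was the 1 of 26 keratins at least 2-fold changed, beside 0.115% of all genes higher, 0.0289% lower and 0.144% in either direction. It did not reach 2-fold on both arrays in the labels' order, with block medians set to 0, under median centring or in the authors' deposited ratios. In that line 17 of 26 (65.4%) had 1 sign on both arrays, against 56.3%, and 13 of 26 a mean above 0, against 49.5%. The HT-29 keratin median was −0.002, against −0.004 over all genes. KRT20 and KRT9 had opposite signs in the lines on all 4 arrays, 2 of 25 keratins (8%), against 7.92% of all genes. Neither did so in the labels' order, where KRT71 alone did (1 of 25), against 12% of all genes. Using only the first arrays, where the labels settle the direction, KRT7 and KRT8 in DLD-1 and KRT20 and KRT23 in HT-29 exceeded 2-fold, all higher in treated RNA: 2 of 25 keratins in DLD-1, beside 2.99% of all genes higher and 1.35% lower, and 2 of 29 for HT-29, beside 4% and 0.785%. On the dye-exchanged array alone the 2-fold keratins were KRT4 (higher) and KRT9 (lower) in DLD-1 and KRT20 (higher) and KRT31 (lower) in HT-29. That was 2 of 27 keratins in DLD-1, beside 203 genes higher and 462 lower over all genes. In HT-29 it was 2 of 26, beside 107 higher and 272 lower. The use of the first arrays alone was chosen after seeing the data.

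**Figure D4:**
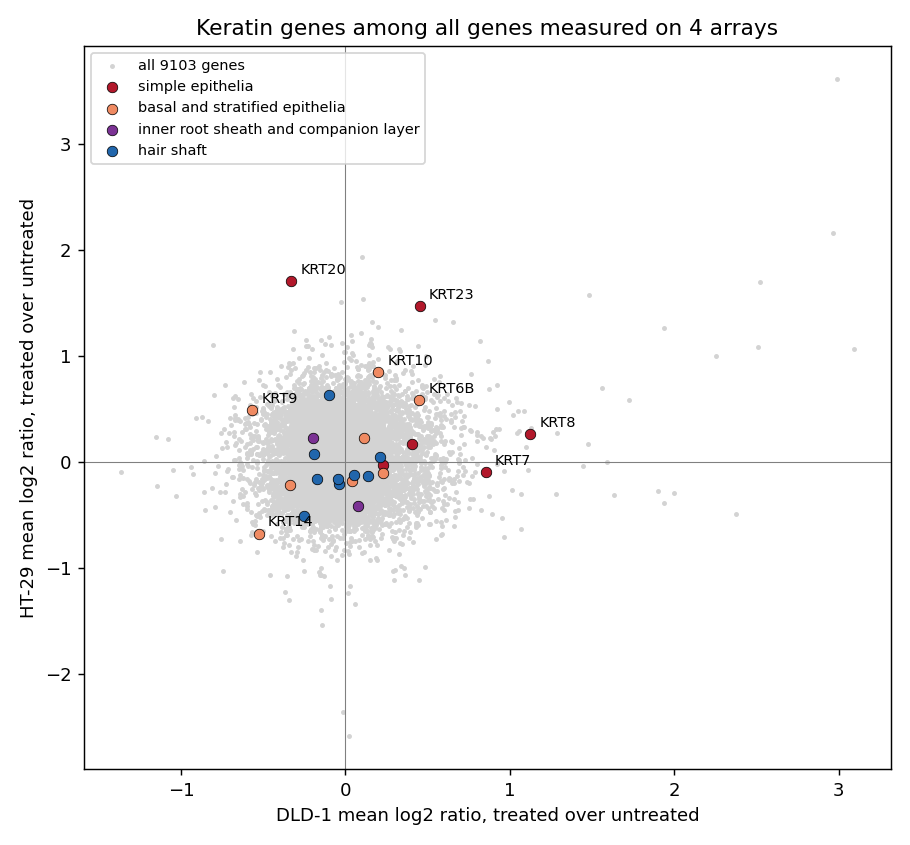
Mean log2 ratio of treated over untreated RNA in DLD-1 against that in HT-29 for each measured keratin gene (coloured by group) and for all 9103 genes (grey). KRT20 (−0.33 in DLD-1, 1.70 in HT-29) and KRT23 (0.45, 1.47) stand out on the HT-29 axis and KRT8 (1.12, 0.26) and KRT7 (0.85, −0.10) on the DLD-1 axis.

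Average spot signal, the mean of the treated and untreated channels on the log2 scale, does not depend on which channel was treated and was compared between the lines. KRT8 was brighter in DLD-1, with 13.45 and 12.97 on the DLD-1 arrays and 11.91 and 11.01 on the HT-29 arrays, a difference of 1.75 (3.37-fold). It was the 1 of 25 keratins with both arrays of a line at least 2-fold above both arrays of the other, beside 3.34% of all genes (2.32% higher in DLD-1, 1.02% higher in HT-29). With signals scaled by the median alone KRT8 lost this call and KRT10 gained it. Without overlap between the lines there were 6 of 25 keratins (24%), against 32.8% of all genes. Brighter in DLD-1 were KRT8 and KRT10, with KRT10 at 12.18 and 12.45 in DLD-1 and 10.79 and 11.79 in HT-29. These KRT10 values come from its first probe alone. The second KRT10 probe, which missed the filter, had 8.41 and 9.95 in DLD-1 and 9.98 and 9.53 in HT-29, which overlap.

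Brighter in HT-29 without overlap were KRT14, KRT16, KRT18 and KRT36. KRT14 had 9.61 and 9.13 in DLD-1 and 10.31 and 10.77 in HT-29, a difference of −1.17 in DLD-1 minus HT-29. KRT16 had 9.03 and 11.02 in DLD-1 and 11.18 and 11.83 in HT-29, so its lines were separated by a narrow gap. KRT36, a hair shaft keratin also known from tongue epithelium, differed by −1.01 and KRT18 by −0.99, the value for KRT18 averaging its 2 probes. The first KRT18 probe alone had 13.81 and 14.36 in DLD-1 and 14.08 and 14.43 in HT-29, which overlap. KRT19 (13.83 and 13.73 in DLD-1, 13.34 and 14.28 in HT-29), KRT20 (10.59 and 12.20, 11.38 and 12.99) and KRT6B (10.32 and 11.45, 7.88 and 11.75) overlapped between the lines. There is 1 replicate a line, so no test was run.

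**Figure D5:**
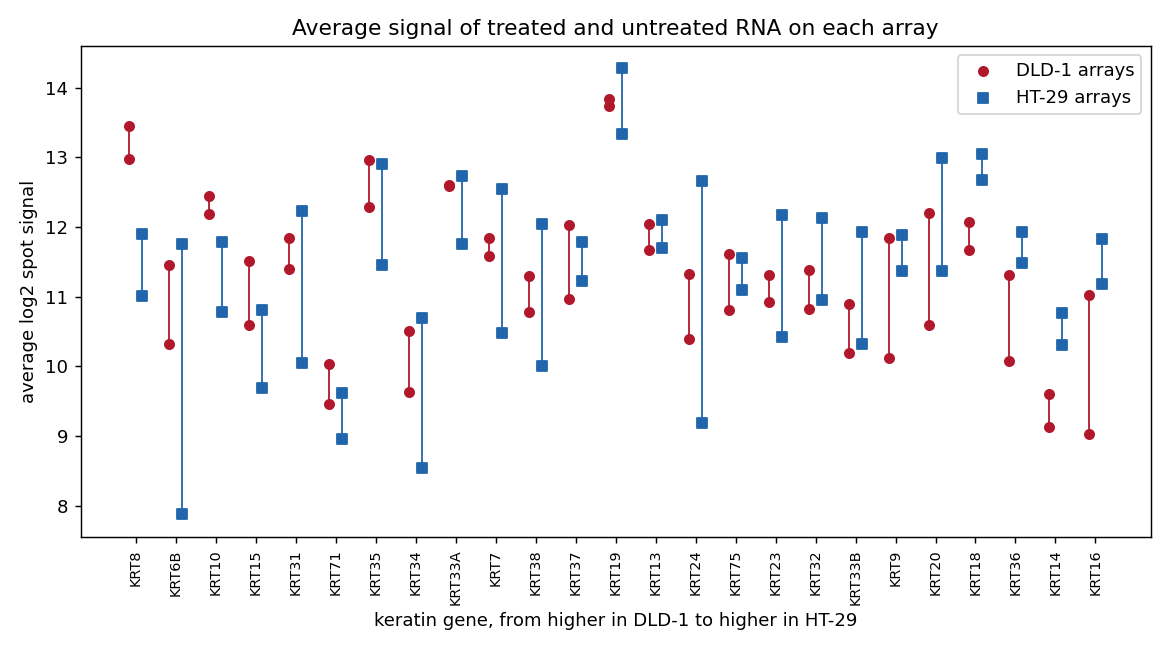
Average log2 spot signal of keratin genes on the 2 arrays of DLD-1 and the 2 arrays of HT-29. KRT8 is the widest apart (13.45 and 12.97 in DLD-1, 11.91 and 11.01 in HT-29), while KRT14, KRT16, KRT18 and KRT36 are brighter in HT-29 without overlap.

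Genes that work with keratins were read from the same fit. Of 52 listed, 47 were on the array and 30 were measured: other intermediate filaments, desmosomal and linker proteins, cornified envelope genes and transcription factors of keratin genes. None passed (0 of 30, with 2 at an unadjusted p under 0.05 by limma, against 5% of all genes), 20 had a mean above 0, against 51.2% of all genes, and the median was 0.12, against 0.01. The labels' order gave 14 means above 0 and a median of −0.03, against 0.05 over all genes. GRHL3, an epidermal transcription factor, had the largest mean under the working reading, with log2 ratios of 1.86 and 0.24 in DLD-1 and 0.58 and 0.37 in HT-29. It was positive on all 4 arrays, with a mean of 0.76 (limma, adjusted p = 0.0947). Its mean was 0.46 in the labels' order, below LMNA (0.60) and DSP (0.58). KLF4, a transcription factor of differentiating gut and skin epithelium, had 1.32 and 0.49 in DLD-1 and 0.53 and −0.30 in HT-29, a mean of 0.51 (limma, adjusted p = 0.728) and of 0.41 in the labels' order. The cornified envelope gene IVL had a mean of 0.34 and the plakin EVPL one of −0.33, and both had an adjusted p of 0.988 by limma. Both signs turned in the labels' order, to −0.72 and 0.24. For both GRHL3 and KLF4 the first DLD-1 array had the largest ratio, as it did for KRT8 and KRT7.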

How the data were processed

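Members and gene lists were chosen with earlier results of these data known. The deposited scanner files give, for each of 30336 spots, the intensity, local background and its SD, linear, for each channel, and the authors' own log2 ratio (channel 1 over 2), centred per array. Dyes are not named per the file headers, and scanner and software are not given in the sources used. In the deposited series table these log2 ratios appear with the sign reversed. The 696 control spots were left out, and 49 probes marked bad on some array did not count as measured on any array. In normalisation a bad spot had no weight on its own array.

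Intensity was corrected with normexp (offset 50) and 1 loess curve per array, and average signals were quantile-normalised, in R 4.3.3 with limma 3.58.1. Signal above background by more than 2 background SD counted as above background. Platform symbols (14200 probes with 1, 447 with several, 14993 with none) were brought to current names through the reference tables; probes of a gene were averaged. Limma (lmFit, eBayes) tested whether the average of the 2 line means differed from 0 (two-sided), and p was adjusted by Benjamini-Hochberg across all genes (threshold 0.05). Within a line there is no p. Of these steps only the limma fit was tried on simulated data, drawn as independent line means with 1 common SD. The earlier steps were not simulated. The text names keratins of simple epithelia, those past the test or at least 2-fold changed in 1 line, the 10 largest means, the 8 furthest apart between lines and those whose probes disagree; KRT9, KRT13, KRT24, KRT31, KRT35, KRT71 and KRT75 were named after their values were seen. Promoter windows were read in Python 3.11.15 from the RefSeq table of GRCh38.p14. Alternatives are other scalings, background corrections, filters, the deposited ratios, the labels' channel order and leaving out each array.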

Additional observations from a re-analysis of the deposited data

Results flagged for a closer look

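Under the working reading KRT20 and KRT9 had opposite signs in the 2 lines on all 4 arrays, which 2 of 25 measured keratins (8%) did, against 7.92% of all genes. For KRT20 the line means of the log2 ratio were 1.70 for HT-29 and −0.33 for DLD-1, a difference of 2.03. For KRT9, an epidermal keratin of palms and soles, the ratios were 0.24 and 0.74 for HT-29 and −0.06 and −1.07 for DLD-1, a difference in line means of 1.06. Neither result holds in the labels' channel order. There KRT20 had mixed signs within each line, KRT9 had line means of −0.25 for HT-29 and 0.51 for DLD-1 with mixed signs within each line, and KRT71 alone had opposite signs (1 of 25), against 12% of all genes. The difference between the lines was not tested for either gene, since each line is 1 replicate.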

How the results depend on the processing

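Fits with an array left out keep 1 array in that line, and their calls, over keratins and over all genes alike, changed with the array. The count of keratins past the limma test, 1 as reported, was 0 in the labels' channel order, 0 with block medians set to 0 and 0 with plainly subtracted background. It stayed at 1 under median centring, both filters on dim probes, the deposited ratios, the first arrays (treated RNA in Cy5) alone and the averaging of the KRT6IRS probe into KRT71, the last 2 chosen after seeing the data. Over all genes the higher and lower calls were 18 and 4 as reported, 57 and 2 in the labels' order, 4 and 0 with block medians set to 0, 2 and 0 with subtracted background, 20 and 2 under median centring, 10 and 1 with both channels above background, 34 and 7 with no filter, 12 and 0 from the deposited ratios and 270 and 32 on the first arrays. Partner genes past the test were 1 on the first arrays, and 0 to 2 with an array left out. Keratins at least 2-fold changed in DLD-1 were 2 on the first array and 2 with either array left out. Over all genes the first DLD-1 array had 314 higher and 142 lower, and the second 203 and 462. In HT-29 the 2-fold keratins were 0 in the labels' order, 0 with block medians set to 0, 0 under median centring and 0 from the deposited ratios. They were 2 on the first array and 2 with either array left out. Over all genes the first HT-29 array had 454 higher and 89 lower, and the second 107 and 272. The DLD-1 keratin median was 0.124 in the labels' order, 0.0967 from the deposited ratios, 0.149 on the first array and 0.149 to 0.205 with 1 array left out. Keratins 2-fold apart between the lines were 3 to 6 with 1 array left out. Over all genes there were then 435 to 1520 higher in DLD-1 and 285 to 724 higher in HT-29, against 211 and 93 as reported. With signals scaled by the median alone the 1 keratin was KRT10 in place of KRT8. Of the 13 named keratins run under these settings, means changed sign for KRT18 with subtracted background (−0.0057) and with an array left out (−0.18 to 0.38), for KRT10 in the labels' order (−0.0031; over all 25 keratins KRT9 and KRT32 turned there too, to 0.13 and 0.20), for KRT15 with block medians set to 0 (−0.0007), and for KRT36 with block medians set to 0 (0.0648) and with an array left out (−0.38 to 0.17). The cause was not tested. Treated and untreated RNA share each array and every value is a ratio within it, so their pairing is already part of each value. The number of arrays limits every value, and dim channels at background give only bounds.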

Other observations

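Another 2 probes carry older symbols of keratins, KRT6IRS (now KRT71) and KRTHB2 (now KRT82), and lie outside the naming rule. The KRT6IRS probe had log2 ratios of 2.85 and 1.65 in DLD-1 and 1.37 and 0.63 in HT-29. Its mean under the working reading was 1.63 with adjusted p = 5.35e-10 by limma over all probes, beside 0.175% of all probes that passed. That p rests on 2 line means and 1 variance shared by all probes. The labels' channel order turns the second value of each line, which gives this probe mixed signs within each line. The probe named KRT71 itself had 0.15, −0.55, −0.07 and 0.53, with a mean of 0.02 and an adjusted p of 0.997 in the same probe fit. The 2 probes differ, and which transcript each binds was not tested. The KRTHB2 probe had −1.0 and 0.86 in DLD-1 and −0.34 and −0.31 in HT-29, with a mean of −0.20 (limma, adjusted p = 0.963). In the labels' order its signs are negative on both DLD-1 arrays and mixed in HT-29.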
